A study of Homo sapiens with 8 samples.

Results

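The cytosolic ribosomal protein genes encode the protein parts of the ribosome that translates nuclear mRNAs. Of 30017 gene symbols in the deposited tables, 90 were taken. The rule asked for a symbol that starts with RPL or RPS and a digit, and added RPLP0, RPLP1, RPLP2 and RPSA. Symbols that end in P and a number, S6 kinase genes and antisense names were left out. The 90 symbols were 46 large subunit genes, 31 small subunit genes, 10 paralogs and 3 readthrough symbols, which join a ribosomal protein gene to its neighbour. A mean of at least 1 TPM (a length-corrected level scaled by the authors to one fixed total in each library) was reached by 86 of the 90, and these were tested. RPL10L averaged 0.115 TPM, and RPL3L, RPS4Y1 and RPS4Y2 were listed at 0 in every library. The rule does not reach FAU and RACK1 (listed as GNB2L1), which also encode ribosomal proteins and averaged 1354 and 3128 TPM.

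All libraries came from A549-S3KO cells, a SMAD3-knockout derivative of the A549 human lung adenocarcinoma line, into which lentivirus had brought a Smad3 cDNA. The 4 groups were Smad3(RA/KP) cells with TGF-β, Smad3(RA/KP) cells without it, wild-type Smad3 cells with TGF-β and wild-type Smad3 cells without it, with n = 2 libraries of polyadenylated RNA each. Smad3(RA/KP) carries R104K and A105P in the DNA-binding MH1 domain, and Smad3 itself is the transcription factor that TGF-β receptors phosphorylate. Treated cells had TGF-β at 1 ng/ml during 8 h on collagen. Infected cells were cloned, and the wild-type Smad3 cells were a clone chosen for low Smad3, so that the form of Smad3 and the clone cannot be told apart. Libraries with the same replicate number are taken as 1 experiment below.

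A ribosome takes nearly all of its proteins in equal numbers, and their mRNAs are among the most abundant of growing cells. Most of these mRNAs begin with a cytosine and an unbroken run of pyrimidines, the 5′ terminal oligopyrimidine (TOP) motif, through which mTOR signalling and LARP1 control their translation. Amounts of the mRNAs and their translation are therefore separate quantities, and only the amounts were measured here. In such bulk RNA, a change in cell composition and a change per cell cannot be told apart.

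The start sites of 14 members are shown because the TOP motif is what most of these genes share, and because the paralogs differ in it at the listed start. Each line gives the 10 bases before and the 20 bases from the RefSeq start site, 5′ to 3′ on the gene's strand, GRCh38.p14. Capitals mark the pyrimidine run that opens the transcript. The first 6 genes have high levels or the smallest p-values below, and the next 8 are parents, each followed by its paralog.
RPS16: ccctagctttCCTTTTCCggttgcggcgcc
RPL35: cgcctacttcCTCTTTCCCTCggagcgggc
RPS18: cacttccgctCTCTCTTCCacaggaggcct
RPL38: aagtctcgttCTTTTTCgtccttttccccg
RPS21: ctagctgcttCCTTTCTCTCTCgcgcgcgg
RPS12: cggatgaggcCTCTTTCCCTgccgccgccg
RPL22: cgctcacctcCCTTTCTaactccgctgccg
RPL22L1: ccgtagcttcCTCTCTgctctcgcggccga
RPL26: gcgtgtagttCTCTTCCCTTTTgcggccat
RPL26L1: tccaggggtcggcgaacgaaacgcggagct
RPS27: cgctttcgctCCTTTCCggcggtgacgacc
RPS27L: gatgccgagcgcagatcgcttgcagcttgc
RPL36A: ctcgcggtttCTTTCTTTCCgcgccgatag
RPL36AL: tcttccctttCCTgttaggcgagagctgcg

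These windows lie at chr19:39435930-39435959 on the minus strand for RPS16, chr9:124861938-124861967 on the minus strand for RPL35, chr6:33272065-33272094 on the plus strand for RPS18, and chr17:74203668-74203697 on the plus strand for RPL38. RPS21 lies at chr20:62387093-62387122 and RPS12 at chr6:132814559-132814588, both on the plus strand. RPL22 lies at chr1:6199576-6199605 and RPL22L1 at chr3:170870176-170870205, both on the minus strand. RPL26 lies at chr17:8383174-8383203 on the minus strand and RPL26L1 at chr5:172958719-172958748 on the plus strand. RPS27 lies at chr1:153990752-153990781 on the plus strand and RPS27L at chr15:63157458-63157487 on the minus strand. RPL36A lies at chrX:101391001-101391030 on the plus strand and RPL36AL at chr14:49620607-49620636 on the minus strand. Each window spans the 5′ end of the first exon.

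RefSeq start sites were found for 72 members. A start of C followed by 4 bases that are each C or T stood at a listed start site of 49 of the 72 members (68.1%), against 1404 of all 27305 genes with a start site (5.14%). Among the large and small subunit genes it was 46 of 62, and among the tested paralogs 1 of 5, RPL22L1. The pyrimidine run was 12 bases long in RPS21 and RPL26 and 11 bases in RPL35, against 3 bases in RPL36AL and none in RPS27L and RPL26L1. Genes with such a start did not have higher mRNA levels as a set. The median was 1866 TPM for the 46 subunit genes with it and 1936 TPM for the 16 without it at a listed start site.

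Members lay on 22 chromosomes, with the most, 12, on chromosome 19.

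The 90 symbols held 19.7 to 23.4% of all TPM in a library. They were 12 of the 20 most abundant symbols, and 54 of the 100 most abundant. RPS16 was the highest at a mean of 9287 TPM over the 8 libraries, and other high members were RPL19 at 9162, RPL35 at 8032, RPS18 at 7211, RPL38 at 7169, RPS6 at 5732, RPLP1 at 4993, RPS14 at 4989 and RPL8 at 4945 TPM. RPS16 reaches the tRNA in the peptidyl site, RPL19 bridges the subunits, RPL35 sits at the exit of the nascent chain, and RPS6 is the substrate of the S6 kinases. Neighbours in this order mostly did not differ beyond their spread. RPS16 was above RPL19 in 3 of 8 libraries, and RPL19 was above RPL35 in 5 of 8, while RPL38 was above RPS6 in 7 of 8.

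Levels differed 55.1-fold between the highest and the lowest subunit gene, although a ribosome takes nearly all of these proteins in equal numbers. RPL22 was lowest, with a mean of 169 TPM, then RPS23 of the decoding centre at 534, RPL34 at 544, RPL21 at 592 and RPL27A at 615 TPM. RPL22 ranged from 144 to 227 TPM over the libraries, and RPS23 from 366 to 846 TPM. The median was 1794 TPM for large subunit genes and 3121 TPM for small subunit genes. The order was much alike in every library, with Spearman correlations of 0.877 to 0.994 over the 77 subunit genes between pairs of libraries, which share the genes' lengths and base composition. The coefficient of variation over the 8 libraries had a median of 15.9%, from 6.03% for RPL14 and 6.60% for RPL11 to 30.6% for RPS18 and 30.9% for RPS19.

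Pseudogene records named after members could share reads with them. They summed to 618 to 1005 TPM per library. RPSAP58 averaged 327 TPM, or 6.82% of its sum with RPSA, RPL13AP5 averaged 292 TPM, or 5.71% of its sum with RPL13A, and RPL21P28 averaged 76.9 TPM, or 11.5% of its sum with RPL21. How far this affects the levels of RPSA, RPL13A, RPL21 and other members is unknown, because the sources used here do not say how reads were split between copies.

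Depth was 1.15 to 1.81 Gb of mapped bases per library. SMAD7, a direct TGF-β target, was at 30.7 to 36.5 TPM in the treated libraries and at 14.6 to 15.5 TPM in the untreated ones, so the treatment labels fit. SMAD3 was at 137 to 187 TPM in all libraries, and these reads do not separate the cDNA from the disrupted gene. KRT8 was at 4235 to 6862 TPM, and the epithelial genes EPCAM and CDH1 were low, at 1.40 to 3.95 and 1.59 to 10.3 TPM. Among 12 markers of fibroblasts, endothelium and immune cells, the fibroblast gene LUM was at 0.33 to 5.19 TPM and never at 0. Of the 12 markers, 7 to 10 were at 0 in each library, among them DCN, PECAM1, VWF, PTPRC and CD3E. Their sum was 67.0 and 92.6 TPM in Smad3(RA/KP) cells with TGF-β, 56.2 and 67.7 TPM without it, 57.9 and 104.5 TPM in wild-type Smad3 cells with TGF-β and 57.0 and 73.8 TPM without it, and nearly all of it was CD68.

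One library stood apart over the 77 subunit genes. In Smad3(RA/KP) cells without TGF-β, the log2 difference between replicates 2 and 1 had an SD of 0.53 over the 77 subunit genes, against 0.22 to 0.38 in the other groups. This difference ran from -1.39 for RPS19 (2551 TPM in replicate 2 and 6695 TPM in replicate 1) to 1.21 for RPS23 (846 and 366 TPM). Across these 77 genes it had a Spearman correlation of -0.45 with transcript GC content, against 0.06 to 0.40 in the other groups. The same sign was seen over all genes (-0.58). To see which of the pair differed, each library was set against the median of the 6 libraries of the other groups. Replicate 2 of untreated Smad3(RA/KP) cells had an SD of 0.39 over the 77 genes and a Spearman correlation of -0.57 with GC content, and replicate 1 had 0.22 and 0.15. The other 6 libraries had SDs of 0.18 to 0.28 and correlations of -0.31 to 0.46, the highest in replicate 2 of Smad3(RA/KP) cells with TGF-β. Over all genes tested, replicate 2 of untreated Smad3(RA/KP) cells had an SD of 0.56 and a correlation of -0.63. Replicate 2 of treated Smad3(RA/KP) cells was close in SD there, at 0.55, with a correlation of 0.48. In experiment 1 the ratio of untreated Smad3(RA/KP) to wild-type Smad3 cells also went with GC content, at 0.48, and in experiment 2 at -0.49. For the response to TGF-β in Smad3(RA/KP) cells it was -0.05 and 0.65 in experiments 1 and 2. The response in wild-type Smad3 cells had 0.27 and 0.14, and the ratio between treated cells of the 2 forms had 0.11 and 0.41. The part of GC content in the differences was not tested. Replicate 2 of untreated Smad3(RA/KP) cells is therefore given with and without below.

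The first question was whether TGF-β changed the ribosomal protein genes through wild-type Smad3. The test was limma on log2(TPM + 1) over 13141 genes, with Benjamini-Hochberg adjustment over all of them and a threshold of 0.05. None of the 86 members passed in wild-type Smad3 cells, while 4.68% of all genes did. At an unadjusted p under 0.05 there were 4 members (4.65%), all lower, against 16.5% of all genes. The median log2 change of the members was -0.06, as was that of all genes (-0.06). Of the 86 members, 26 were above 0 and 60 below. Large subunit genes had a median of -0.02 (46 genes) and small subunit genes one of -0.13 (31 genes), and these medians were not tested. For 81 members the 95% interval of the change lay between -1 and 1 on the log2 scale. For 28 of them it lay within 0.5 of 0.

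RPS21, a small subunit protein, had the smallest p in wild-type Smad3 cells. It had 1309 and 894 TPM after TGF-β, against 1757 and 1485 TPM without it. Both treated libraries were below both untreated ones. The log2 change was -0.58 (SE 0.16), with an adjusted p of 0.0893 by limma, and it did not pass. With a GC trend removed from the values, the adjusted p of RPS21 was 0.0388 and it passed, as did 7.79% of all genes. It also passed without replicate 1 (0.0390, where 8.19% of all genes passed) or replicate 2 (0.0434, where 7.7% did) of untreated Smad3(RA/KP) cells, libraries that enter this comparison only through the shared estimate of spread and block.

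RPL39L is the paralog of RPL39, a protein in the wall of the exit tunnel, and is best known from the testis. It had 71.4 and 133 TPM after TGF-β, against 124 and 218 TPM without it. The groups overlapped, but the treated library was lower in both experiments. The log2 change was -0.75 (SE 0.23) with an adjusted p of 0.117 by limma, and without replicate 1 of the treated Smad3(RA/KP) cells it was 0.0469, where 4.32% of all genes passed.

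The next members in this comparison were also small subunit genes, and none passed. RPS13, which bridges the subunits, had 3722 and 3034 TPM after TGF-β, against 4749 and 4754 TPM without it (log2 change -0.50, SE 0.19). RPS28, which lies at the mRNA exit, had 685 and 646 TPM after TGF-β, against 772 and 1144 TPM without it (log2 change -0.50, SE 0.21). Its log2 change was -0.17 in experiment 1 and -0.82 in experiment 2. RPS10, at the mRNA entry, had 3147 and 2555 TPM after TGF-β, against 3853 and 3523 TPM without it (log2 change -0.38, SE 0.17). Adjusted p-values of RPS13, RPS28 and RPS10 were 0.217, 0.268 and 0.318 by limma. In all of these the treated libraries were below the untreated ones. Over the 86 members, both treated libraries were below both untreated ones for 16 (18.6%), against 27.9% of all genes, and above for 4 (4.65%), against 17.8% of all genes.

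The same question was put to cells with Smad3(RA/KP). Again none of the 86 members passed, against 4.98% of all genes. At an unadjusted p under 0.05 there were 6 members (6.98%), 1 higher and 5 lower, against 21.9% of all genes. The median log2 change was -0.09, beside -0.10 for all genes. The counts were 32 members above 0 and 54 below. Both treated libraries were above both untreated ones for 10 members (11.6%), against 19% of all genes, and below for 21 (24.4%), against 25.4% of all genes. Neither share exceeded that of all genes.

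RPL35 was the member nearest to a call in any of the 5 comparisons. It had 10389.9 and 12071 TPM in Smad3(RA/KP) cells with TGF-β, against 6253 and 6893 TPM without it. Both treated libraries stood above all the other 6, which lay at 5702 to 9154 TPM. The log2 change was 0.77 (SE 0.19, 95% interval 0.33 to 1.21), 0.73 in experiment 1 and 0.81 in experiment 2. The adjusted p was 0.0587 by limma and did not pass. RPL35 passed when the pseudocount was 0.1 TPM (0.0475, where 4.55% of all genes passed), when genes needed a mean of 5 TPM (0.0419, where 7.04% did), and without replicate 1 of the untreated Smad3(RA/KP) cells (0.0288). It did not pass in the other 18 of the 21 alternatives. The log2 change of RPL35 ran from 0.42 to 0.91 over the 21. Where 1 library was left out it ran from 0.63 to 0.91, so the lowest value came with all 8 libraries. With 63.7% GC in its longest transcript RPL35 was the subunit gene richest in G and C. Set against the other groups, replicates 1 and 2 of treated Smad3(RA/KP) cells had correlations of 0.26 and 0.46 with GC content over the subunit genes. The part of GC content in the change of RPL35 was not tested. In wild-type Smad3 cells RPL35 had 6040 and 7749.9 TPM after TGF-β, against 5702 and 9154 TPM without it, and the groups overlapped.

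The next 4 members by p-value in Smad3(RA/KP) cells were lower with TGF-β in both experiments, and none passed. RPS12 had 1896 and 1743 TPM after TGF-β, against 2569.9 and 2709.98 TPM without it (log2 change -0.54, SE 0.19, adjusted p 0.146 by limma). RPL9, of the large subunit, had 986 and 831 TPM after TGF-β, against 1441 and 1269.96 TPM without it (log2 change -0.58, SE 0.21). RPL41, the shortest ribosomal protein, had 1160.4 and 1156 TPM after TGF-β, against 1648 and 1498 TPM without it (log2 change -0.44, SE 0.16). RPS27A, which is made as a fusion with ubiquitin, had 1362 and 1233 TPM after TGF-β, against 1919 and 1720.3 TPM without it (log2 change -0.49, SE 0.20). Adjusted p-values of RPL9, RPL41 and RPS27A were 0.154, 0.161 and 0.202 by limma. Groups did not overlap for RPS12, RPL9, RPL41 or RPS27A.

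Without replicate 2 of the untreated Smad3(RA/KP) cells no member passed in this comparison. Without replicate 1, so that replicate 2 alone stood for the untreated cells, 12 members passed (13.95% of the 86, against 20.7% of all genes). Then RPL35 (0.91), RPS9 (0.99), RPS15 (0.76), RPL13 (0.71) and RPL18 (0.58) were called higher, and RPL5 (-1.03), RPL39 (-0.89), RPS15A (-0.82), RPS12 (-0.75), RPL35A (-0.65) and RPS27L (-1.12) lower, as log2 changes. The remaining call was RPL36A-HNRNPH2, at or near 0 in the other libraries. The spread of the untreated group, then 1 library, was taken to be that of the other groups. Without replicate 2 in its place, RPL35 was at 0.63, RPS12 at -0.33 and RPL18 at 0.17, while RPL13 was at -0.08, RPS9 at -0.17, RPS15 at -0.15 and RPL39 at 0.21, with the opposite sign. RPL35 was also called with all 8 libraries under the 2 alternatives above, and the others were called only with replicate 2 alone as the untreated library.

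**Figure D1:**
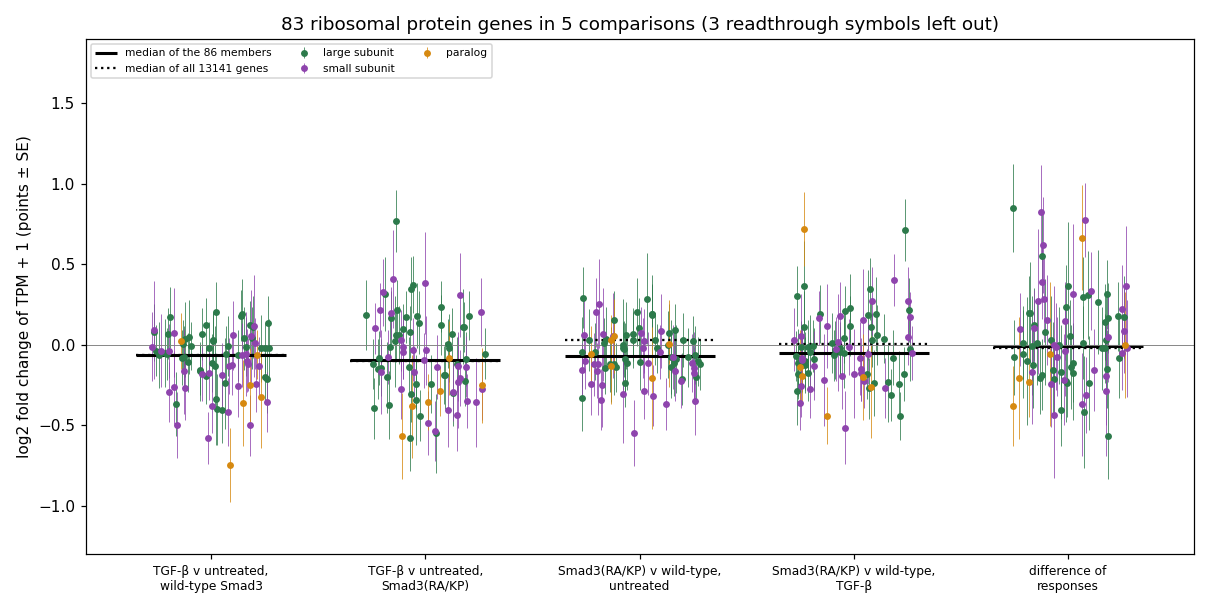
log2 fold change ± SE of the 77 subunit genes and 6 paralogs in each comparison, with the median of the 86 members (solid bar) and of all 13141 genes (dotted bar). The points lie around both medians in every comparison, with RPL35 at 0.77 standing highest in the response of Smad3(RA/KP) cells, and none passed an adjusted p of 0.05 by limma.

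Cells with the 2 forms of Smad3 were then set against each other. In untreated cells, none of the 86 members passed, against 0.0152% of all genes. At an unadjusted p under 0.05 there were 2 members (2.33%), against 2.5% of all genes. The median log2 difference, Smad3(RA/KP) over wild-type Smad3, was -0.07 for the members and 0.03 for all genes. RPS28 had 706 and 584 TPM in untreated Smad3(RA/KP) cells, against 772 and 1144 TPM in untreated wild-type Smad3 cells (log2 difference -0.55, SE 0.21). The 1144 TPM, of replicate 2, was its highest value. All other libraries lay at 584 to 860 TPM. That library also enters the response of wild-type Smad3 cells and the difference of responses. Leaving out 1 library, the log2 difference of RPS28 ran from -0.86 to -0.24 here. It ran from -0.81 to -0.19 in that response and from 0.51 to 1.13 in the difference of responses. RPS21 had 1555 and 1005 TPM in untreated Smad3(RA/KP) cells, against 1757 and 1485 TPM in untreated wild-type Smad3 cells (log2 difference -0.37, SE 0.16). RPS26, which contacts the mRNA upstream of the start codon, had 1561 and 1027 TPM in Smad3(RA/KP) cells, against 1637 and 1572 TPM in wild-type Smad3 cells (log2 difference -0.34, SE 0.19). RPS10 had 3651 and 2495 TPM in Smad3(RA/KP) cells, against 3853 and 3523 TPM in wild-type Smad3 cells (log2 difference -0.29, SE 0.17). In RPS28, RPS21, RPS26 and RPS10 the low value of Smad3(RA/KP) cells was that of replicate 2, the library that stood apart, and all had an adjusted p of 1 by limma. Both Smad3(RA/KP) libraries were above both wild-type Smad3 libraries for 3 members (3.49%), against 10.1% of all genes, and below for 6 (6.98%), against 8.78% of all genes.

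With TGF-β, again none of the 86 members passed, against 0.00761% of all genes, and 6 members (6.98%) had an unadjusted p under 0.05, against 7.4% of all genes. The median log2 difference was -0.05 for the members and 0.00 for all genes. RPL35 had 10389.9 and 12071 TPM in Smad3(RA/KP) cells, against 6040 and 7749.9 TPM in wild-type Smad3 cells (log2 difference 0.71, SE 0.19, adjusted p 0.612 by limma). Over the 21 alternatives its log2 difference ran from 0.43 to 0.80. RPL39L had 155 and 168 TPM in Smad3(RA/KP) cells, against 71.4 and 133 TPM in wild-type Smad3 cells (log2 difference 0.72, SE 0.23). RPL21 had 539.5 and 422 TPM in Smad3(RA/KP) cells, against 775 and 542 TPM in wild-type Smad3 cells (log2 difference -0.44, SE 0.15). For RPL35, RPL39L and RPL21 the groups did not overlap. RPL7L1 had 49.8 and 44.9 TPM in Smad3(RA/KP) cells, against 76.9 and 54.1 TPM in wild-type Smad3 cells (log2 difference -0.44, SE 0.18). RPS21 had 1646 and 1246 TPM in Smad3(RA/KP) cells, against 1309 and 894 TPM in wild-type Smad3 cells (log2 difference 0.40, SE 0.16). The groups did not overlap for RPL7L1 and overlapped for RPS21. Adjusted p-values of RPL39L, RPL21, RPL7L1 and RPS21 were 0.612 to 0.658 by limma. Both Smad3(RA/KP) libraries were above both wild-type Smad3 libraries for 8 members (9.30%), against 18.8% of all genes, and below for 9 (10.5%), against 18.7% of all genes.

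The last comparison was the difference of the responses, Smad3(RA/KP) minus wild-type Smad3. None of the 86 members passed, against 0.0228% of all genes, and 3 members (3.49%) had an unadjusted p under 0.05, against 4.29% of all genes. These were RPL35 (difference 0.85, SE 0.27), RPS28 (0.82, SE 0.29) and RPS21 (0.77, SE 0.23), each with an adjusted p of 0.881 by limma. RPS21 had 1646 and 1246 TPM in Smad3(RA/KP) cells with TGF-β, against 1555 and 1005 TPM without it, the opposite order to wild-type Smad3 cells. RPS28 had 753 and 860.05 TPM in Smad3(RA/KP) cells with TGF-β, against 706 and 584 TPM without it, also opposite to wild-type Smad3 cells. Next came RPS29, a zinc-binding small subunit protein (0.62, SE 0.30), and RPL35A, a large subunit protein (-0.56, SE 0.27), also at 0.881. RPS29 had 2549 and 1724 TPM after TGF-β, against 1746 and 1901 TPM without it, in Smad3(RA/KP) cells. Wild-type Smad3 cells had 1793 and 1678 TPM of RPS29 after TGF-β, against 2116 and 2539.6 TPM without it. The 95% intervals were widest here, and for 64 of the 86 members they lay between -1 and 1. For the rest, a difference beyond that range in at least 1 direction is not excluded.

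The summed level of the 90 symbols did not separate the groups. It was 21.1 and 21.7% of all TPM in Smad3(RA/KP) cells with TGF-β, against 22.9 and 20.9% without it. In wild-type Smad3 cells it was 23.4 and 19.7% with TGF-β, against 23.2 and 21.9% without it. The groups overlapped, and the sum was higher with TGF-β in experiment 1 of wild-type Smad3 cells and in experiment 2 of Smad3(RA/KP) cells, and lower in the 2 remaining pairs. An exact permutation test of 2 against 2 libraries cannot go below p = 0.33, so none was made.

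The ratio of the large to the small subunit sum was 1.19 and 1.31 in Smad3(RA/KP) cells with TGF-β, against 1.01 and 1.19 without it. In wild-type Smad3 cells it was 1.02 and 1.23 with TGF-β, against 0.957 and 1.13 without it. Within a replicate number, the treated library had the higher ratio in all 4 pairs, yet the groups overlapped in both lines because replicate 2 was above replicate 1 in every group. Without RPL35 and RPL19, the most abundant large subunit genes, left out after their values were seen, the ratio was 0.985 and 1.05 with TGF-β against 0.873 and 1.03 without it in Smad3(RA/KP) cells. It was then 0.893 and 1.03 with TGF-β against 0.847 and 0.954 without it in wild-type Smad3 cells. The median large subunit gene over the median small subunit gene gave a higher ratio in 3 of the 4 pairs only. RPS18, with a coefficient of variation among the highest (30.6%), was lower in replicate 2 of every group, but hardly so in Smad3(RA/KP) cells with TGF-β. It had 5384 and 5361 TPM in Smad3(RA/KP) cells with TGF-β, against 9445 and 5376 TPM without it, and 9899 and 5953 TPM in wild-type Smad3 cells with TGF-β, against 10178 and 6091 TPM without it.

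**Figure D2:**
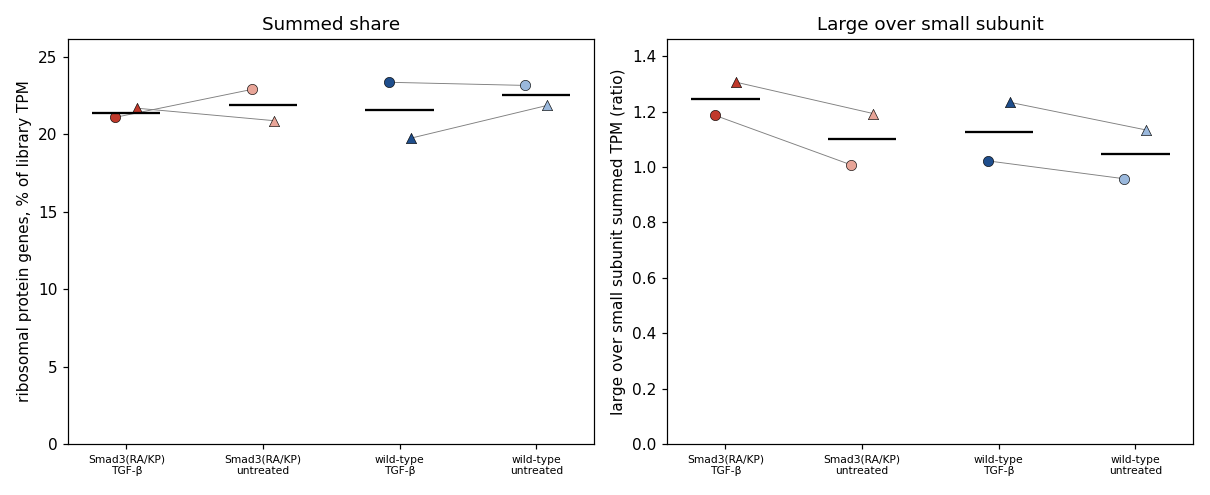
Share of all TPM held by the 90 ribosomal protein symbols (left, in percent) and ratio of the large to the small subunit sum (right) in each library, with circles for replicate 1, triangles for replicate 2, bars for the mean of 2 and grey lines joining libraries of the same replicate number. The share overlaps between groups, and the ratio is higher in the treated library of each of the 4 pairs, from 0.957 to 1.31 over all libraries.

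The stalk proteins RPLP0, RPLP1 and RPLP2, which recruit the elongation factors, were at 3292 to 4993 TPM on average and none passed in any comparison. RPLP1 had 4160 and 5869 TPM in Smad3(RA/KP) cells with TGF-β, against 5175 and 4823 TPM without it. RPSA, the small subunit protein also known as the laminin receptor precursor, averaged 4469 TPM and likewise did not pass. RPL5 and RPL11, which join the 5S RNA and can bind MDM2, the negative regulator of p53, averaged 976 and 1417 TPM. RPL11 was among the steadiest members, at 1309 to 1554 TPM. RPL5 had 799 and 762 TPM in Smad3(RA/KP) cells with TGF-β, against 842 and 1552 TPM without it, and the high value was that of the library that stood apart. RPL5 in wild-type Smad3 cells had 922 and 913 TPM after TGF-β, against 1070.5 and 945 TPM without it.

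The paralogs were expressed below their parents, and each was set against its parent as a share of their summed TPM. RPL36AL held 31.0 to 38.8% of its sum with RPL36A, RPL22L1 16.8 to 33.6% with RPL22, and RPS27L 9.60 to 22.7% with RPS27. RPL39L held 4.33 to 10.5% with RPL39, RPL7L1 2.29 to 4.93% with RPL7, and RPL26L1 2.94 to 3.65% with RPL26. RPL10L, known from the testis, held at most 0.00897% of its sum with RPL10. RPL3L, known from muscle, and RPS4Y1 and RPS4Y2, the Y-linked copies of RPS4X, were listed at 0.

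No paralog passed in either response to TGF-β. RPL22L1 had 37.8 and 41.7 TPM in Smad3(RA/KP) cells with TGF-β, against 42.8 and 63.4 TPM without it, and 66.0 and 34.6 TPM in wild-type Smad3 cells with TGF-β, against 75.1 and 48.2 TPM without it. Its share was lower in the treated library of each of the 4 pairs, at 18.6 and 20.6% against 22.9 and 21.8% in Smad3(RA/KP) cells and at 30.2 and 16.8% against 33.6 and 21.2% in wild-type Smad3 cells. RPS27L, a p53-inducible gene in human cells, had 238 and 188 TPM in Smad3(RA/KP) cells with TGF-β, against 244 and 406 TPM without it. It had 271 and 218 TPM in wild-type Smad3 cells with TGF-β, against 366 and 267 TPM without it. RPS27L was thus lower in the treated library of all 4 pairs, with log2 changes of -0.57 (SE 0.27, adjusted p 0.256 by limma) in Smad3(RA/KP) cells and -0.36 (SE 0.27, adjusted p 0.603) in wild-type Smad3 cells. Without replicate 1 of the untreated Smad3(RA/KP) cells, the adjusted p of the first was 0.00766, and without replicate 2 its log2 change was -0.02, so that it rests on that library.

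RPL36AL was at 296 to 408 TPM, RPL26L1 at 90.2 to 155 TPM and RPL7L1 at 44.9 to 76.9 TPM over the 8 libraries. RPL36AL had log2 changes with TGF-β of -0.29 (SE 0.15) in Smad3(RA/KP) cells and -0.06 (SE 0.15) in wild-type Smad3 cells. RPL26L1 had -0.25 (SE 0.23) in both. RPL7L1 had -0.36 (SE 0.18) and 0.02 (SE 0.18). Adjusted p-values of RPL36AL, RPL26L1 and RPL7L1 were 0.272 to 0.977 by limma.

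The readthrough symbols overlap their ribosomal protein gene, so that reads can be split between both records. RPL36A-HNRNPH2 was at 107 TPM in replicate 2 of untreated Smad3(RA/KP) cells and at 0 to 0.206 TPM in the other 7 libraries, while RPL36A itself was at 644 TPM in both replicates of those cells. A fold over libraries at or near 0 is set by the pseudocount and is not given. RPL36A-HNRNPH2 did not pass in any of the 5 comparisons. It was called between untreated cells and in the difference of responses only without replicate 1 of untreated Smad3(RA/KP) cells, where 0.0381% and 0.0457% of all genes were. That arm was then the 1 library with the high value, and its spread was taken from the other groups, so these calls rest on that library. RPL17-C18orf32 was at 10.7 to 58.4 TPM, with the highest value in the same library. RPS10-NUDT3 was at 8.41 TPM in replicate 1 of wild-type Smad3 cells with TGF-β and at 1.69 TPM in replicate 2 of Smad3(RA/KP) cells with TGF-β, and was listed at 0 in the other 6. Its 1 call, in the response of wild-type Smad3 cells without replicate 2 of their treated libraries (where 1.16% of all genes passed), rests on the library at 8.41 TPM.

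Genes that act with the ribosomal proteins were counted from lists. Of 27 other mRNAs known for a 5′ TOP motif, 1 (3.70%) passed in each response to TGF-β, against 4.98% of all genes in Smad3(RA/KP) cells and 4.68% in wild-type Smad3 cells, and none in the other comparisons. It was VIM, the intermediate filament gene and a mesenchymal marker, with 2562 and 3379 TPM in Smad3(RA/KP) cells with TGF-β, against 1163 and 1803 TPM without it, and 1923 and 3502 TPM in wild-type Smad3 cells with TGF-β, against 1157 and 1897 TPM without it. VIM rose by 1.02 (SE 0.17, adjusted p 0.0106 by limma) in Smad3(RA/KP) cells and by 0.81 (SE 0.17, adjusted p 0.0303) in wild-type Smad3 cells. The elongation factor genes of that list, such as EEF1A1 with log2 changes of -0.37 (SE 0.24) and 0.01 (SE 0.24), did not pass. The list's median log2 change was -0.23 in Smad3(RA/KP) cells and -0.01 in wild-type Smad3 cells, beside -0.10 and -0.06 for all genes.

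None of 34 translation initiation factors, 68 ribosome assembly factors, 15 genes of the RNA polymerase I machinery that makes ribosomal RNA, 7 genes of the 5S particle and its assembly, or FAU and RACK1 passed in any of the 5 comparisons by limma. At an unadjusted p under 0.05 the assembly factors numbered 12 (17.6%) in Smad3(RA/KP) cells and 3 (4.41%) in wild-type Smad3 cells, and the initiation factors 5 (14.7%) and 3 (8.82%). These shares lay below those of all genes, 21.9% in Smad3(RA/KP) cells and 16.5% in wild-type Smad3 cells. The RNA polymerase I genes numbered 6 of 15 (40.0%) in Smad3(RA/KP) cells and 2 (13.3%) in wild-type Smad3 cells, against the same shares of all genes. Their median log2 change was -0.40 in Smad3(RA/KP) cells and -0.07 in wild-type Smad3 cells, beside -0.10 and -0.06 for all genes. Of these 6, 2 were higher and 4 lower. CD3EAP, a polymerase subunit, had the smallest p of the list, with 0.93 (SE 0.24, adjusted p 0.0609), and UBTF, the upstream binding factor of the ribosomal RNA genes, had 0.44 (SE 0.16, adjusted p 0.155). Among the lower ones POLR1E had -0.48 (SE 0.20, adjusted p 0.199). Of the 7 genes of the 5S particle, 2 (28.6%) had an unadjusted p under 0.05 in wild-type Smad3 cells, both lower. In Smad3(RA/KP) cells there were 0. That list holds the members RPL5 and RPL11 and shares RPF2 and RRS1 with the assembly factors.

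A list of regulators of ribosomal protein genes and their mRNAs also held cell cycle and p53 genes, such as CDKN1A and MDM2. Of its 25 tested genes, 2 (8.0%) passed in Smad3(RA/KP) cells, against 4.98% of all genes. In wild-type Smad3 cells 1 (4.0%) passed, against 4.68% of all genes, and all calls were higher. CDKN1A, the cyclin-dependent kinase inhibitor p21, had 233 and 225 TPM in Smad3(RA/KP) cells with TGF-β, against 112 and 85.9 TPM without it. It had 245 and 252 TPM in wild-type Smad3 cells with TGF-β, against 139 and 127 TPM without it. CDKN1A rose by 1.22 (SE 0.16, adjusted p 0.00365 by limma) in Smad3(RA/KP) cells and by 0.90 (SE 0.16, adjusted p 0.0139) in wild-type Smad3 cells. SESN2, an inhibitor of mTORC1 signalling, had 12.7 and 14.9 TPM in Smad3(RA/KP) cells with TGF-β, against 5.88 and 7.14 TPM without it, and rose by 0.98 (SE 0.21, adjusted p 0.0351). SESN2 in wild-type Smad3 cells had 8.33 and 12.3 TPM after TGF-β, against 7.77 and 8.14 TPM without it, and did not pass. MYC, an activator of ribosomal protein genes, had log2 changes of 0.60 (SE 0.16, adjusted p 0.0704) in Smad3(RA/KP) cells and 0.40 (SE 0.16, adjusted p 0.241) in wild-type Smad3 cells. LARP1, which binds TOP mRNAs, had -0.13 (SE 0.18) and -0.19 (SE 0.18) and did not pass.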

How the data were processed

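RNA-seq libraries of the 4 groups were mapped to their labels, with replicate numbers from the titles. Alignment to GRCh38 by the authors used HISAT2 2.1.0 and quantification StringTie 2.0.4, without de novo assembly (versions per the submitters' processing notes). The sources used here do not give the annotation. The deposited tables hold coverage, FPKM and TPM of 33122 records. TPM is scaled to a fixed total per library, so a gene's value depends on all others, and coverage over FPKM gave the mapped bases. Counting intervals could not be given, as the files hold no read counts. FPKM served as an alternative.

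Records of 1 symbol were summed (105 records for the 90 members). Genes whose mean reached 1 TPM were fitted on log2(TPM + 1) by limma (3.58.1, R 4.3.3) with 4 groups, replicate number as a block and a mean-variance trend, and p-values were adjusted after Benjamini-Hochberg. The study formed ratios per experiment, hence the block. That equal numbers mark 1 experiment is an assumption: deviations from group means correlated at 0.0484 to 0.332 between same-numbered libraries over all genes, and at -0.27 to 0.58 over the 86 members, below 0 in 2 of 6 group pairs, among them treated and untreated Smad3(RA/KP) cells (-0.17). Nothing says more of how the replicates were grown, so p-values measure the spread between these libraries. The 30 pseudogene symbols of members, 12 kinase symbols and 2 antisense symbols were left out, as was RPS19BP1, which ends in P and a number but is no pseudogene. Named members are those with the 5 smallest p-values per comparison where fewer than 5 passed, the 10 highest and 5 lowest subunit genes, all paralogs and readthrough symbols, and RPLP0, RPLP1, RPLP2, RPSA, RPL5 and RPL11. From other lists, members that passed were named. Some items are not reported here by name. CD3EAP, UBTF, POLR1E, EEF1A1, MYC and LARP1, and the members of the alternative fits, were named after their values were seen. Members and lists were chosen with earlier results of these data known. GC content is that of the longest GENCODE v44 transcript, found for 94.6% of tested genes and all members. Start sites are from RefSeq GRCh38.p14. The fit was tested on simulated data. Alternatives were other pseudocounts, filters and scalings, FPKM, no block, no trend, 1 record per symbol, pseudogene records added, a GC trend removed, and each of 8 libraries left out. The comparison of each library with those of the other groups was also added after seeing the data. So was leaving RPL35 and RPL19 out of the subunit sums. Plots were made in Python 3.11.15 (matplotlib 3.10.9).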

Additional observations from a re-analysis of the deposited data

Results flagged for a closer look

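The share of RPL39L in its sum with RPL39 moved in opposite directions in the 2 lines. With TGF-β relative to without it, its log2 ratio was 0.15 and 0.33 in Smad3(RA/KP) cells, in experiments 1 and 2, and -0.71 and -0.25 in wild-type Smad3 cells. RPL39L held 7.93 and 9.73% with TGF-β against 7.16 and 7.73% without it in Smad3(RA/KP) cells, and 4.33 and 8.81% with TGF-β against 7.08 and 10.5% without it in wild-type Smad3 cells. The level of RPL39L did not rise in both experiments of Smad3(RA/KP) cells. Its log2 ratio there was 0.43 in experiment 1 and -0.60 in experiment 2, and that of RPL39 was 0.28 and -0.96. In experiment 2 both genes thus fell, and the share rose as RPL39 fell further. Both were highest in untreated replicate 2, the library that stood apart, where RPL39L reached 254.9 TPM and RPL39 3041 TPM. The share in that library was 7.73%, beside 7.16% in untreated replicate 1, so only the levels were high there. Both treated shares were above both untreated shares in Smad3(RA/KP) cells. The difference of the shares was not tested, with 2 libraries per group. For RPL39L itself, limma gave a difference of responses of 0.67 (SE 0.33, adjusted p 0.881), which did not pass.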

How the results depend on the processing

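No member passed in any of the 5 comparisons under 10 of the 13 alternatives that kept all 8 libraries, no replicate block included (0 members in each comparison, with 1 or 2 at an unadjusted p under 0.05). Without the block fewer of all genes passed as well. They were 2.11% in wild-type Smad3 cells and 2.05% in Smad3(RA/KP) cells, against 4.68% and 4.98% with it. The exceptions were 1 member in the response of Smad3(RA/KP) cells with a pseudocount of 0.1 TPM and 1 with a minimum mean of 5 TPM (RPL35 in each, where 4.55% and 7.04% of all genes passed), and 1 in that of wild-type Smad3 cells with the GC trend removed (RPS21, where 7.79% did). Leaving out 1 library gave 0 to 1 members in wild-type Smad3 cells, 0 to 12 in Smad3(RA/KP) cells (20.7% of all genes passed where 12 members did), 0 to 1 between untreated cells, 0 to 0 between treated cells and 0 to 1 for the difference. The single call in wild-type Smad3 cells without replicate 2 of their treated libraries was RPS10-NUDT3, listed at 0 in most libraries, where 1.16% of all genes passed.

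The median log2 change of the members in Smad3(RA/KP) cells was -0.14 with FPKM, 0.0043 with median-ratio scaling and -0.045 with the GC trend removed, and -0.13 to -0.0079 leaving out 1 library. The median of all genes was then -0.20 to -0.0014, and the members' median minus it ran from -0.12 to 0.19, at its lowest without replicate 2 and at its highest without replicate 1 of the treated Smad3(RA/KP) cells. Median-ratio scaling moved the median of all genes there from -0.10 to -0.02, and that in wild-type Smad3 cells from -0.06 to -0.01. Between untreated cells the members' median was -0.10 with median-ratio scaling and -0.039 with quantile normalization, and -0.083 to -0.043 leaving out 1 library. In wild-type Smad3 cells it was -0.20 to 0.020 leaving out 1 library. With TGF-β it was -0.14 to 0.071 between the lines and -0.10 to 0.11 for the difference, leaving out 1 library.

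Of 36 gene values tested, 6 passed in at least 1 alternative, as given in the report, and 7 changed sign in at least 1. With median-ratio scaling RPL36AL in wild-type Smad3 cells was at 0.0015 and RPL39L in Smad3(RA/KP) cells at 0.014, RPL39L there was at 0.099 with the GC trend removed, and RPL7L1 in wild-type Smad3 cells was at -0.019 with FPKM. Leaving out 1 library, the response in Smad3(RA/KP) cells ran from -0.90 to 0.13 for RPL22L1, -0.57 to 0.060 for RPL26L1 and -0.50 to 0.33 for RPL39L. In wild-type Smad3 cells it ran from -0.79 to 0.14 for RPL22L1, -0.61 to 0.11 for RPL26L1, -0.13 to 0.0048 for RPL36AL and -0.17 to 0.22 for RPL7L1. The causes were not tested. Summed levels and paralog shares moved by less than the spread between experiments or libraries. With no read counts in the files, how much counting error adds to the low paralogs is unknown.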
